A study of Mus musculus with 2 samples.

Results

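The genes described here are 53 mouse genes of mitosis, the kinetochore and cytokinesis, out of 43346 gene rows in the deposited tables. They were chosen by name, as a list of cell division genes, and each was found once in both tables by its gene ID. They fall into 8 groups by role: 7 kinases and cyclins, 4 genes of the chromosomal passenger complex, 9 of the checkpoint and anaphase, 7 of the kinetochore, 9 kinesins, 7 spindle-associated genes, 7 of condensin and chromosome structure, and 3 of cytokinesis.

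The RNA came from the forebrain of mouse embryos of strain B6NCrl at embryonic day 11.5, male and female together, labelled healthy and with no treatment named. Forebrains of 109 embryos were pooled for replicate 1 and those of 88 others for replicate 2. Library input was RNA longer than 200 nucleotides in an amount of 1 cell-equivalent, carried through a SmartSeq protocol, in which complementary DNA is amplified before sequencing. The labels call the assay single-cell RNA-seq, but give pooled tissue as its source, and the libraries are treated here as bulk samples. There is 1 group of 2 samples, so the values describe these libraries, with no test and no p-value, and they say nothing of how mitotic genes change with age, tissue or treatment.

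In mitosis, Cdk1 bound to cyclin B starts chromosome condensation and the building of the spindle, and kinetochores tie each chromosome to spindle microtubules. The spindle checkpoint holds the cell until every kinetochore is attached, after which the anaphase-promoting complex has cyclin B and securin destroyed and the sister chromatids part. Cytokinesis then splits the cell at the central spindle. In the early forebrain the dividing cells are the neuroepithelial progenitors that line the ventricle, where they round up and divide at the inner surface. Transcripts of most of these genes accumulate late in the cell cycle and are low in cells that have stopped dividing, such as young neurons.

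The libraries held 28639678 and 28948074 expected counts, of which 27395002 and 27977544 were in genes. The limit that an observed count of 0 allows, 3 counts, was 0.110 and 0.107 CPM (counts per 1000000 gene counts). This limit covers counting error only. All 13 neural progenitor markers listed for comparison were detected in both libraries, with a summed level of 1614 and 2649 TPM, and Vim, an intermediate filament gene of progenitors, was the highest at 741 and 1290 TPM. TPM is transcripts per 1000000, a level corrected for transcript length, so it can be compared between genes. Of 12 young neuron markers, 10 were detected in both, with a sum of 1083 and 1027 TPM. Their highest member, Tubb3, the neuronal beta tubulin, had 512 and 356 TPM.

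Nearly all the mitotic genes were read in both libraries. Taking a TPM of 1 or more as detected, 52 of 53 were detected in both, against 30.4% of 21474 protein-coding genes, and the exception was Ttk. The genes were listed as known genes of dividing cells by someone who had seen these data, so nothing further is read from that share. Mean TPM ran between 11.2 for Espl1 and 611 for Ube2c, with a median of 103, and 27 of the 53 had a mean of at least 100. Together they made up 7515 TPM in replicate 1 and 8666 TPM in replicate 2, or 8090 ± 814 (SD, n = 2). They took 1.15% and 1.22% of all gene counts. In bulk tissue a smaller number of dividing cells and less mitotic RNA per cell cannot be told apart.

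**Figure D1:**
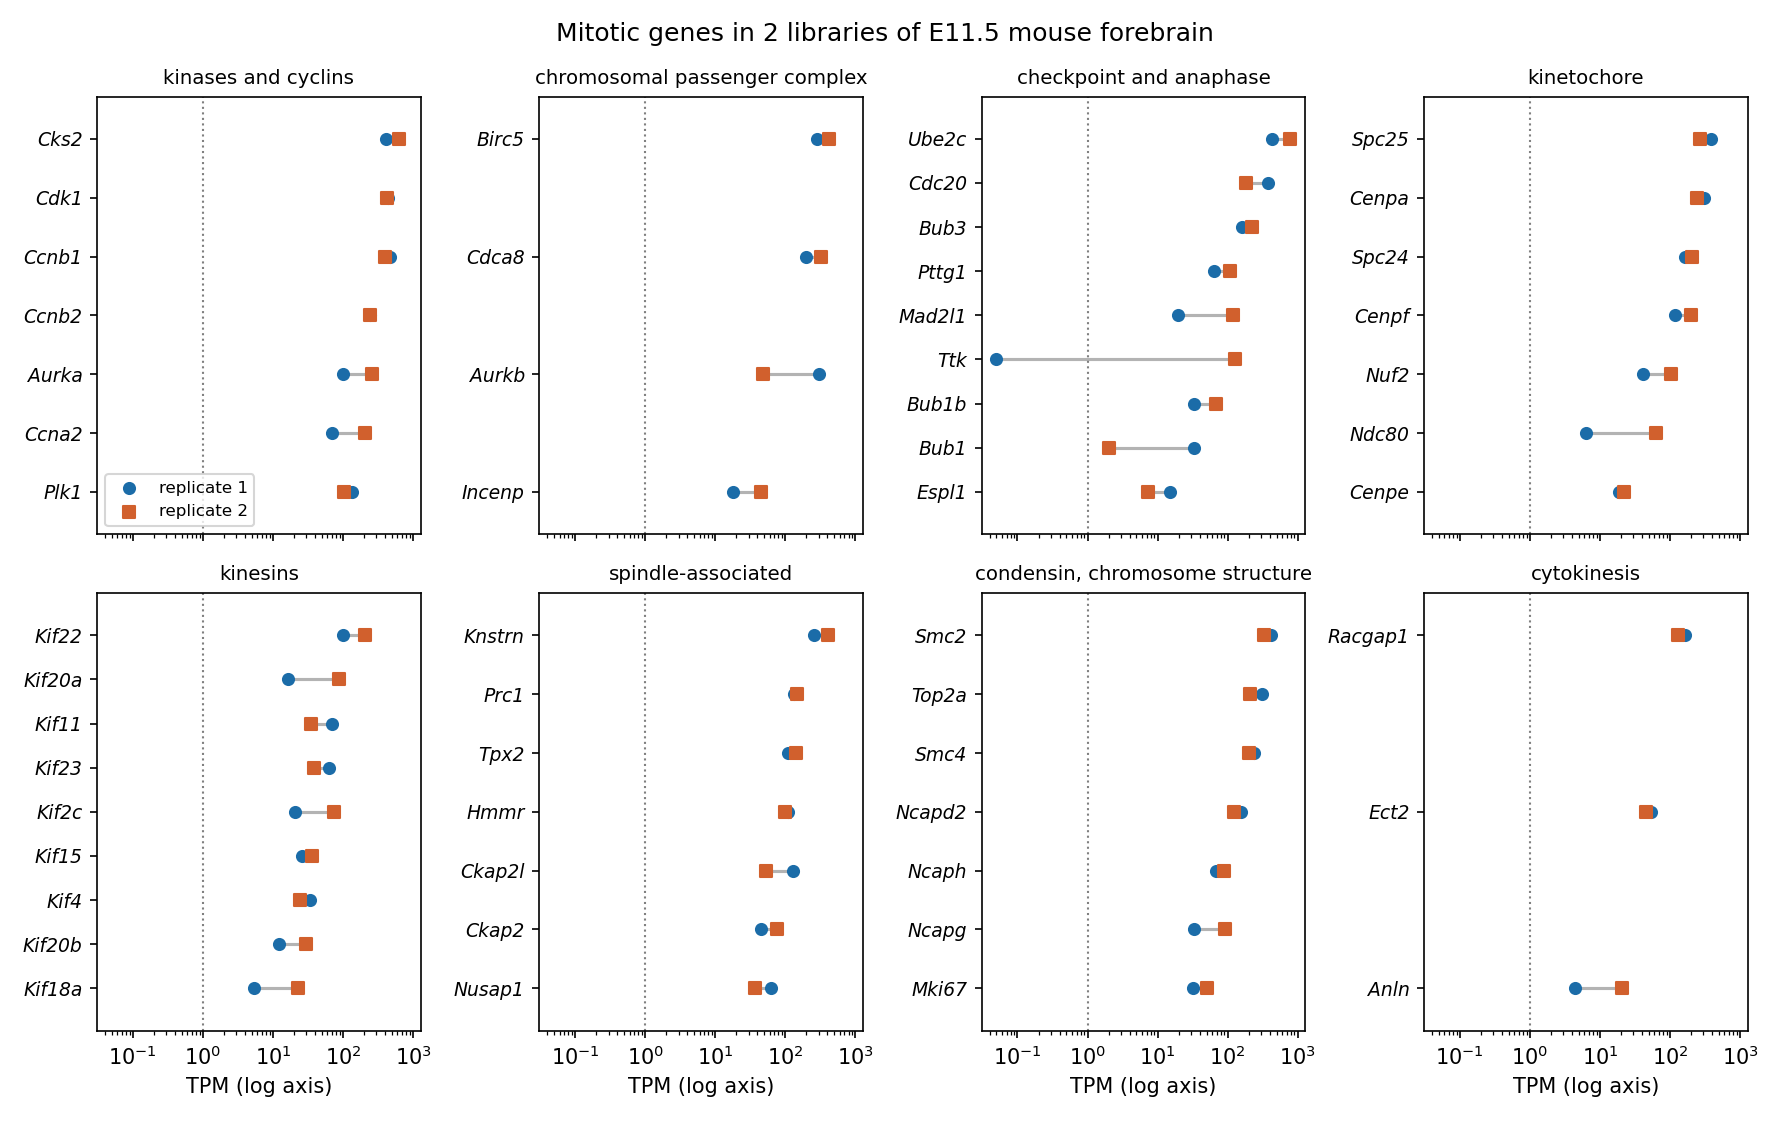
TPM of the 53 mitotic genes (log axis), by role, with replicate 1 as blue circles, replicate 2 as orange squares and a grey line joining the 2 libraries of a gene. The dotted line marks a TPM of 1, and Ttk in replicate 1, at 0.05, is the single point below it.

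The kinases and cyclins that drive entry into mitosis were among the most abundant and the closest between libraries. Cdk1, the kinase at the centre of mitotic entry, had 444 TPM in replicate 1 and 432 TPM in replicate 2, or 438 ± 8.03 (SD, n = 2). It lies on the minus strand at chr10:69335146-69352938 (mm10, GENCODE M21). Its partners followed closely: Ccnb1, cyclin B1, had 466 and 399 TPM, and Ccnb2, cyclin B2, had 241 and 244 TPM. Within this complex the highest and lowest genes stood 1.93-fold apart in replicate 1 and 1.77-fold apart in replicate 2. Cks2, a small protein that binds the kinase and helps it recognise substrates, had 412 and 626 TPM. Plk1, the polo kinase of centrosome maturation and spindle assembly, had 134 and 104 TPM.

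The other members of the group were more unequal. Ccna2, cyclin A2, which acts in S phase and up to early mitosis, had 69.2 TPM in replicate 1 and 205 TPM in replicate 2. Aurka, the Aurora kinase of the spindle poles, had 101 and 258 TPM. These were the only 2 of the 7 to differ at least 2-fold, and both were higher in replicate 2. Ccna2 shares 12.5% of its exon bases with Exosc9 on the opposite strand, which had 2082 and 6367 counts, and how the reads were assigned by strand is not given in the sources used here.

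Within the chromosomal passenger complex, which corrects wrong attachments and later moves to the central spindle, Aurkb went against the other 3 genes. Aurkb (ENSMUSG00000020897.8, chr11:69045647-69051664, plus strand), the Aurora kinase that is the complex's enzyme, had 305 TPM from 11898 counts in replicate 1 and 48.3 TPM from 1695 counts in replicate 2. In CPM the ratio of replicate 1 to replicate 2 was 7.17, with a 95% counting interval of 6.81 to 7.55. This interval and those like it below cover counting error only, since the reads lack molecular identifiers. Birc5 (survivin), which brings the complex to the centromere, had 287 and 422 TPM. Cdca8 (borealin), its binding partner there, had 199 and 326 TPM. Incenp, the scaffold that activates the kinase, was the lowest subunit in both libraries, at 17.9 and 45.2 TPM. All 3 were thus higher in replicate 2 while their kinase was higher in replicate 1, so the most abundant subunit was Aurkb in replicate 1 and Birc5 in replicate 2. The highest and lowest subunits stood 17.0-fold apart in replicate 1 and 9.32-fold apart in replicate 2.

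The checkpoint genes held the most unequal members. Ttk (Mps1, ENSMUSG00000038379.11, chr9:83834689-83872389, plus strand), the kinase that starts checkpoint signalling at unattached kinetochores, had 3 counts in replicate 1 and 7691 counts in replicate 2. On the TPM scale that was 0.05 and 129. The CPM ratio of replicate 2 to replicate 1 was 2510, and the 3 counts leave it a 95% counting interval of 859 to 12175. A gene that ranked 2418 by mean TPM among all genes was thus almost unread in replicate 1.

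Bub1, the kinase that places the checkpoint and centromere guard proteins, was unequal in the other direction. Bub1 (ENSMUSG00000027379.9, chr2:127801122-127831865, minus strand) had 32.8 TPM in replicate 1 and 2.00 TPM in replicate 2, and its CPM ratio of replicate 1 to replicate 2 was 14.1 (95% counting interval 12.0 to 16.8). Mad2l1 (Mad2, ENSMUSG00000029910.10, chr6:66535390-66547220, plus strand), the inhibitor of the anaphase-promoting complex, had 19.8 TPM in replicate 1 and 121 TPM in replicate 2. The checkpoint's other inhibitors were nearer between libraries. Bub1b (BubR1) had 33.7 and 69.1 TPM, and Bub3, its partner and that of Bub1, had 162 and 225 TPM. The order of the checkpoint genes thus differed by library: Bub3 was the highest of Ttk, Bub1, Bub1b, Bub3 and Mad2l1 in both, but Ttk was the lowest in replicate 1 and Bub1 the lowest in replicate 2.

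Genes of the anaphase step were abundant, apart from separase. Ube2c, the ubiquitin-conjugating enzyme of the anaphase-promoting complex and the highest of the 53 by mean, had 431 TPM in replicate 1 and 791 TPM in replicate 2. Cdc20, the complex's activator and the target of the checkpoint, had 382 and 186 TPM. Pttg1, securin, had 63.7 and 110 TPM. Espl1, separase, the protease that cuts cohesin once securin is gone, had 14.9 and 7.41 TPM, the lowest mean of the 53. Securin therefore exceeded separase in both libraries.

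The kinetochore genes spanned a wide range of levels. Cenpa, the histone H3 variant that marks the centromere, had 305 and 241 TPM. Of the 4 subunits of the Ndc80 complex, which grips the microtubule end, Spc25 had 385 and 267 TPM, Spc24 had 162 and 205 TPM, and Nuf2 had 41.8 and 102 TPM. Ndc80 itself (ENSMUSG00000024056.9, chr17:71496100-71526857, minus strand) had 6.44 TPM from 303 counts in replicate 1 and 63.0 TPM from 2936 counts in replicate 2. The order Spc25, Spc24, Nuf2, Ndc80 was the same in both libraries, and the complex is known to contain them in equal numbers. The highest and lowest stood 59.8-fold apart in replicate 1 and 4.24-fold apart in replicate 2. For Ndc80 the CPM ratio of replicate 2 to replicate 1 was 9.49 (95% counting interval 8.43 to 10.7). Cenpe, the kinesin that carries chromosomes to the spindle equator, had 18.7 and 22.4 TPM, and Cenpf, a large outer kinetochore protein, had 117 and 201 TPM.

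The kinesins, motors that move along microtubules or take them apart, were the lowest role on the whole, with a median TPM of 25.7 in replicate 1 and 36.0 in replicate 2. Kif22, which pushes chromosome arms away from the poles, was the highest at 99.0 and 207 TPM. Kif11 (Eg5), which drives the poles apart, had 69.7 and 35.1 TPM. Kif23, the motor of centralspindlin at the central spindle, had 62.5 and 39.1 TPM, and Kif4, which shortens central spindle microtubules and works with condensin, had 33.7 and 24.3 TPM. Those 3 were higher in replicate 1, and the other 6 of the 9 were higher in replicate 2.

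Kif20a, which moves the passenger complex to the central spindle, had 16.6 TPM in replicate 1 and 88.8 TPM in replicate 2. Kif2c, which takes apart microtubules at wrong attachments, had 20.5 and 75.6 TPM, and Kif18a, which limits chromosome swinging at the equator, had 5.41 and 22.8 TPM. Kif20b, a late mitotic motor that is required for normal cerebral cortex growth in mice, had 12.4 and 29.9 TPM. Kif15, which can share the work of Kif11, had 25.7 and 36.0 TPM. At least 2-fold higher in replicate 2 were 5 of the 9 kinesins (Kif2c, Kif18a, Kif20a, Kif20b and Kif22), and none was 2-fold higher in replicate 1 by TPM. Among the 7680 genes whose mean TPM was 10 or more, the shares were 26.6% in that direction and 24.7% in the other. Their summed level was 345 TPM in replicate 1 and 558 TPM in replicate 2. Kif20a shares 29.3% of its exon bases with Cdc23 on the opposite strand, which was the higher one in replicate 1, with 9144 and 6485 counts. Kif4 shares 15.1% with Pdzd11, which had 297 and 3148 counts.

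The spindle-associated genes differed less than the kinesins, with a median absolute difference in log2(TPM + 1) of 0.65 against 1.05. Prc1, which bundles the central spindle's antiparallel microtubules, had 134 and 148 TPM, and Tpx2, which activates Aurora A and nucleates microtubules, had 108 and 142 TPM. Hmmr, which acts at the spindle poles, had 108 and 99.1 TPM. Knstrn, an adaptor at kinetochores and the spindle, was the highest of the group at 258 and 404 TPM. Ckap2, which promotes microtubule growth, had 44.5 and 75.6 TPM, while its relative Ckap2l, a spindle protein of neural progenitors in mice, had 130 and 52.9 TPM. Nusap1, which binds and bundles microtubules around chromosomes, had 63.5 and 37.2 TPM. Of the 7 genes Ckap2l was the single member to differ 2-fold, and the summed level was 846 TPM in replicate 1 and 959 TPM in replicate 2. By counts the order of the libraries turned, with 0.155% of gene counts in replicate 1 and 0.143% in replicate 2. The sums of the passenger complex and kinetochore genes turned in the same way. The passenger complex had 809 and 841 TPM but 0.0928% and 0.0851% of gene counts. The kinetochore genes had 1037 and 1102 TPM but 0.146% and 0.144% of gene counts.

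Condensin and chromosome genes had a summed level of 1248 TPM in replicate 1 and 1103 TPM in replicate 2. Smc2 and Smc4, the ATPase pair of condensin, had 412 and 336 TPM and 236 and 205 TPM. Of the other condensin I subunits, Ncapd2 had 157 and 123 TPM, Ncaph had 67.4 and 88.9 TPM, and Ncapg had 33.7 and 91.7 TPM. By TPM Smc2 was the highest of the 5 in both libraries. By counts Smc4 stood above Smc2 in replicate 2, at 9162 against 8720. Ncapg was the lowest in replicate 1 and Ncaph in replicate 2, and Ncapg shares 13.4% of its exon bases with Lcorl on the opposite strand, which had 1077 and 105 counts. Top2a, the topoisomerase that untangles sister chromatids, had 309 and 209 TPM. Mki67 (Ki-67), which coats mitotic chromosomes and is a common marker of dividing cells, had only 32.5 and 50.2 TPM, but from 7245 and 11106 counts, because its transcript is 10075 bases long and TPM divides by length.

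Among the cytokinesis genes, Racgap1, the partner of Kif23 in centralspindlin, had 166 TPM in replicate 1 and 130 TPM in replicate 2. Ect2, the exchange factor that activates RhoA at the cleavage furrow, had 54.2 and 45.6 TPM. Anln (anillin), the scaffold of the contractile ring, had 4.46 and 20.5 TPM. Racgap1 stood 2.65-fold above Kif23 in replicate 1 and 3.33-fold above it in replicate 2, so the order of this pair was the same in both.

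The differences between the libraries were set beside those of all genes above the same floor, a mean TPM of 10 or more. On the log2(TPM + 1) scale, replicate 1 minus replicate 2, the median difference was -0.39 over the 53 mitotic genes and -0.02 over the 7680 genes whose mean TPM was 10 or more. The mitotic genes thus lay a little higher in replicate 2, by 32 genes to 21. Higher in replicate 2 were 9 of 13 at a mean TPM between 10 and 50 and 9 of 13 between 50 and 100 (51.5% and 47.2% of all genes). It was 8 of 13 between 100 and 200 and 6 of 14 between 200 and 1000 (51.7% and 49.3% of all genes). In that highest band the median difference was 0.12, so the lean was not seen there. A difference of at least 2-fold (1 on that scale) was seen for 19 of 53 mitotic genes, or 35.8%, against 51.3% of all genes. Of these, 4 were higher in replicate 1 (7.55%, against 24.7% of all genes) and 15 were higher in replicate 2 (28.3%, against 26.6%). So the share higher in replicate 2 was near that of all genes, and the share higher in replicate 1 was lower. The floor does not match the sets by level: 4678 of the 7680 genes had a mean between 10 and 50, against 13 of the 53. Shares within bands of level are given further on. Genes with a difference just inside 2-fold were Ube2c at -0.87, Espl1 at 0.92 and Kif11 at 0.97, and just past it were Bub1b at -1.02, Cdc20 at 1.03 and Kif22 at -1.05.

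By role, the median difference was 0.24 for cytokinesis, 0.20 for condensin and chromosome structure, -0.02 for kinases and cyclins, -0.15 for spindle-associated genes, -0.34 for kinetochore, -0.63 for the passenger complex, -0.78 for checkpoint and anaphase and -1.05 for kinesins. Each is a median over 3 to 9 genes of the same pair of libraries. The summed TPM of the neural progenitor markers was also lower in replicate 1, but that sum rests mostly on 2 genes. Vim had 741 and 1290 TPM, and Fabp7, named after its values were seen, had 438 and 1010 TPM. The markers had a median difference of -0.12 over the 12 that reached the level, with 6 of them higher in each library. At least 2-fold higher were 4 in replicate 1 and 2 in replicate 2. Whether progenitor content has a part in the lean of the mitotic genes was not tested.

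The unequal genes lay mostly at the lower levels. At a mean TPM between 10 and 50, 7 of 13 mitotic genes differed 2-fold (53.8%, against 65.0% of 4678 genes). Between 50 and 100 it was again 7 of 13 (53.8%, against 42.9% of 1344 genes). Between 100 and 200 it was 4 of 13 (30.8%, against 28.9% of 835 genes), and between 200 and 1000 it was 1 of 14 (7.14%, against 12.0% of 684 genes), that gene being Cdc20. Within these levels the mitotic genes stood above the share of all genes in 2 bands and below it in 2. Genes with under 1% of their scaled counts in 1 of the libraries numbered 1 of 53 (Ttk, 1.89%), against 18.1% of all genes. Most of that all-gene share comes from the lowest band, which held 28.7% such genes, against 0 of 13 mitotic genes there. In the band between 50 and 100, where Ttk lies, it was 1 of 13 (7.69%), against 3.57% of all genes.

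**Figure D2:**
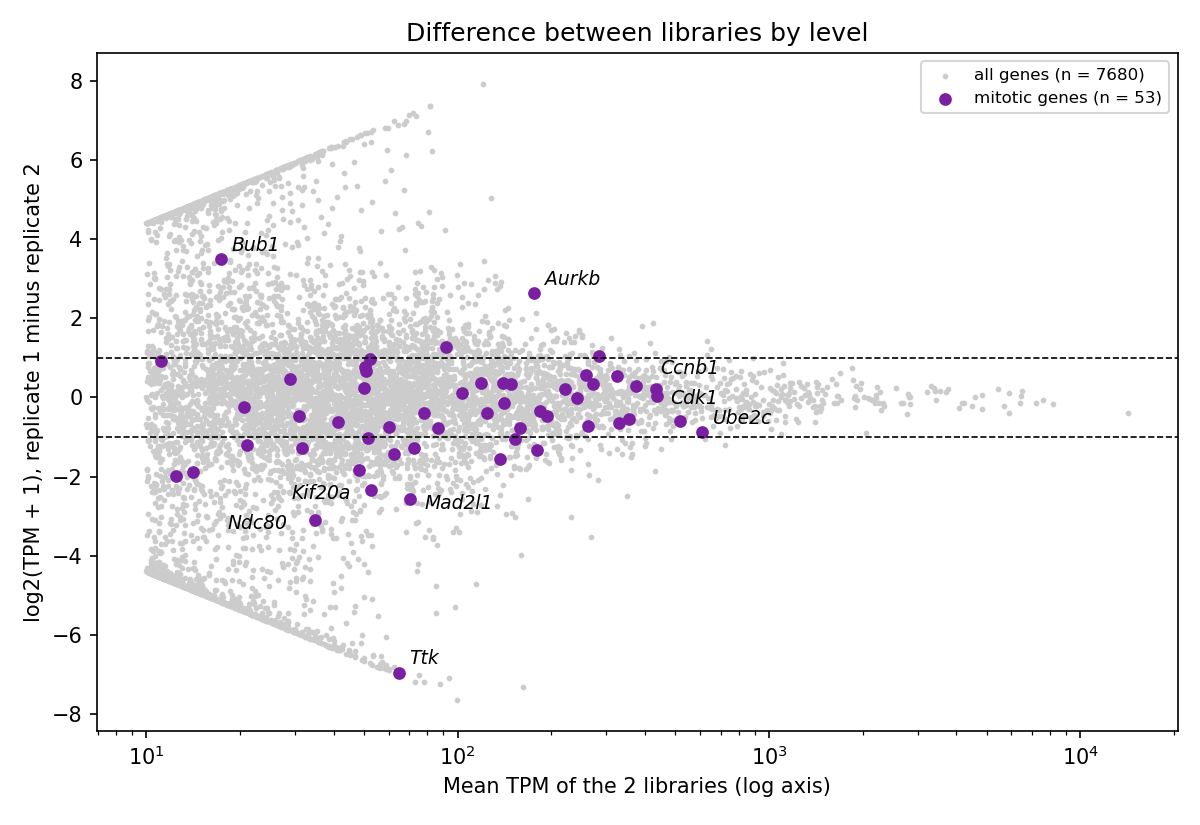
Difference in log2(TPM + 1), replicate 1 minus replicate 2, against the mean TPM of the 2 libraries (log axis), for the 53 mitotic genes (purple) and the 7680 genes whose mean TPM was 10 or more (grey). Dashed lines mark 2-fold, and the spread of both sets narrows as TPM grows, with Ttk at the lower edge where genes read in 1 library lie.

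The deposited tables also hold a posterior interval for each gene, which describes 1 library at a time. It lies around the posterior mean of TPM, not around the TPM printed here, which can fall outside it. Ccnb1 in replicate 1 had a posterior mean of 456 and an interval of 450 to 462, below its TPM of 466. These intervals did not overlap between libraries for 51 of 53 mitotic genes (96.2%, against 89.9% of all genes at this level), the exceptions being Cdk1 and Ccnb2. Cdk1, for instance, had an interval of 417 to 450 in replicate 1 and 406 to 438 in replicate 2. Ndc80 had 5.60 to 7.01 in replicate 1 and 59.3 to 63.7 in replicate 2. Such intervals are therefore far narrower than the spread between libraries and do not stand for it.

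TPM also depends on the transcript lengths the authors' program assigned, so the same differences were taken in counts. On log2(CPM + 1), 19 mitotic genes again differed 2-fold, and 17 of these were the same genes. Kif11 (1.03) and Espl1 (1.03) passed in counts alone, and Bub1b (-0.77) and Cdc20 (0.94) in TPM alone. The sign was opposite on the 2 scales for 2 genes. Ccnb2 lay near 0 on both (-0.02 in TPM and 0.03 in counts), but Cenpf was lower in replicate 1 by TPM, at -0.77, and higher by counts, at 0.22.

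**Figure D3:**
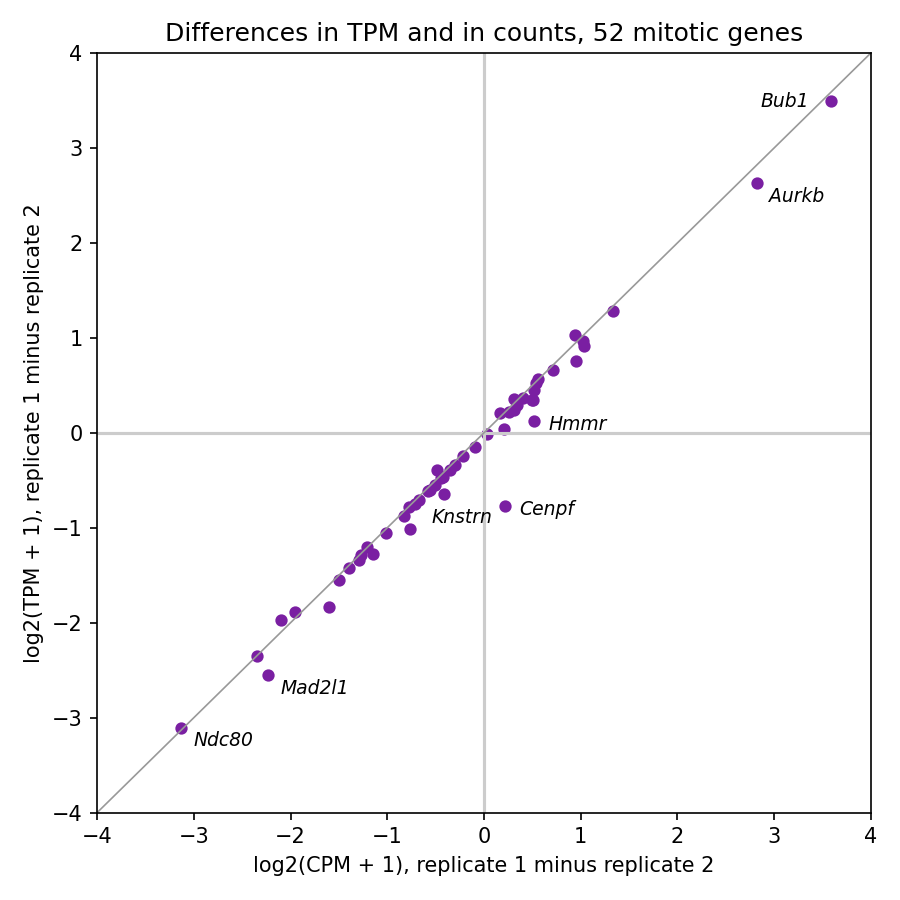
Difference between libraries (replicate 1 minus replicate 2) in log2(TPM + 1) against that in log2(CPM + 1) for 52 mitotic genes, Ttk left out because it lies far off the axes. Most genes lie on the diagonal, and Cenpf has opposite signs on the 2 axes.

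For Cenpf the deposited gene length, an average over transcripts weighted by their share, was 4489 bases in replicate 1 and 2369 bases in replicate 2. A 609-base transcript annotated as subject to nonsense-mediated decay took 49.7% of the gene's TPM in replicate 1 and 41.5% in replicate 2. A 3001-base transcript took 8.97% in replicate 1 and 49.6% in replicate 2, where it led. The direction for Cenpf thus rests on which transcripts the reads were given to.

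Transcript use could be followed for 33 of the 35 mitotic genes with several annotated transcripts, those whose gene TPM was 5 or more in each library. The same transcript led in both libraries for 28 of 33 (84.8%), against 2857 of 4352 genes of all kinds (65.6%). Those 4352 genes passed the same limits but were not matched to the mitotic genes by level or number of transcripts. Nothing is therefore read from the gap between the 2 shares. For 10 genes the leading transcript held over 90% of the gene's TPM in both libraries, among them Ccnb1 (96.9% and 99.9%), Ccna2 (99.7% and 98.7%), Birc5 (99.9% in each) and Ncapg (99.4% and 95.8%). For Racgap1 the leader's share was 92.1% in replicate 1 and 55.6% in replicate 2, and for Pttg1 it was 42.9% and 99.9%.

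The leader differed for 5 genes, Cenpf, Ect2, Hmmr, Mad2l1 and Nusap1. The median mean TPM of these 5 was 70.3, against 162 for the 28 with the same leader. Mad2l1 was the most divided: its leading transcript in replicate 1, of 1725 bases, held 79.3% there and 0.07% in replicate 2, where a transcript of 1370 bases held 99.9%. In Nusap1 the replicate 1 leader held 52.9% there and 4.76% in replicate 2. In Hmmr the full-length coding transcript of 3892 bases held 70.5% in replicate 1 and 48.4% in replicate 2, where a noncoding transcript of 1080 bases held 51.2%. Short or noncoding forms also led in both libraries for Smc2 (a 643-base processed transcript at 44.9% and 51.1%), Tpx2 (a 733-base retained intron at 45.8% and 40.0%) and Cenpa (a 1151-base decay-annotated form at 56.2% and 49.5%). For Smc4 a 1163-base transcript annotated as coding led in both, at 68.4% and 65.3%. The deposited gene length of Smc4 was 1996 bases in replicate 1 and 2114 bases in replicate 2. A share of TPM favours short transcripts, since fewer reads make up the same TPM.

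**Figure D4:**
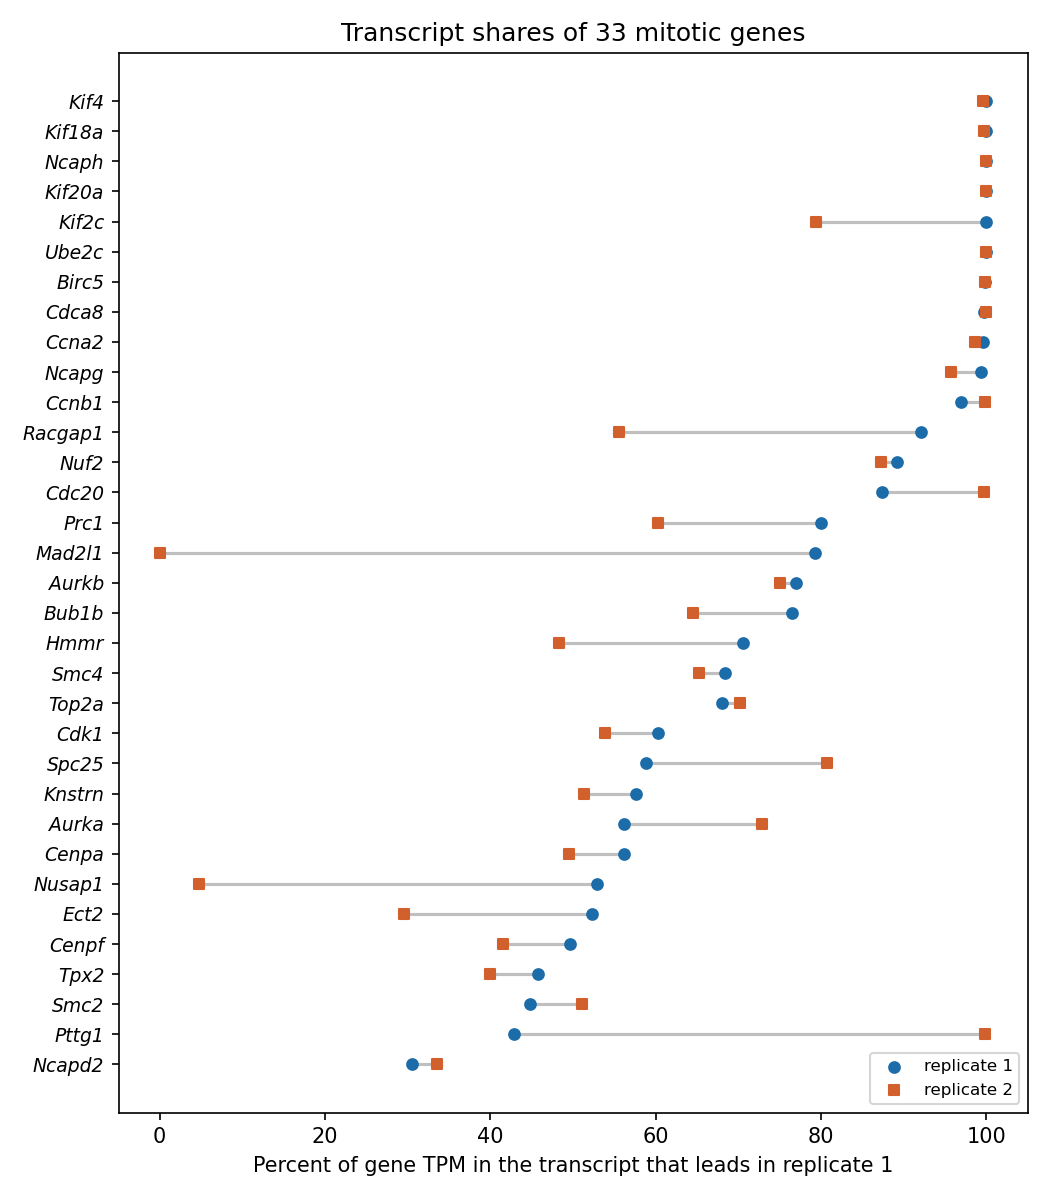
Percent of gene TPM held by the transcript that leads in replicate 1, in replicate 1 (blue circles) and replicate 2 (orange squares), for the 33 mitotic genes with several transcripts and a gene TPM of 5 or more in each library. Mad2l1 has the longest line, with 79.3% in replicate 1 and 0.07% in replicate 2, and Pttg1 the next, with 42.9% and 99.9%.

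What the genes share beyond their level can be read in their promoters. Many late cell cycle genes are known to carry a CHR (cell cycle genes homology region), the element bound by the MuvB complexes that hold them silent in resting cells and switch them on before mitosis, and CCAAT boxes upstream of it, bound by NF-Y. Reference promoters from RefSeq (build GRCm38.p6), each from 250 bases before to 50 bases after the start site, were found for 46 of the 53 genes, as 49 windows, since Bub3, Ect2 and Prc1 have 2 each. Both strands were searched for TTTGAA or TTTAAA as a CHR and for CCAAT. No promoter was matched for Aurkb, Ccna2, Incenp, Kif20a, Smc4, Spc24 and Tpx2.

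The 7 stretches that follow run from 110 bases to 1 base before the start site, 5′ to 3′ on the gene's strand, with CHR and CCAAT matches of either strand in capitals (TTCAAA and ATTGG are the same words read on the opposite strand). They were picked after their matches were seen, to show the usual layout, and Ttk and Mad2l1 are added as 2 of the most unequal genes. None covers an exon annotated in GENCODE M21.
Ccnb2 (chr9:70421555-70421664, minus strand): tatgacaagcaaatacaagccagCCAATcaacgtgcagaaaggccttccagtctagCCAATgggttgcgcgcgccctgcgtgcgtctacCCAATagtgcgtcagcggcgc
Top2a (chr11:99024190-99024299, minus strand): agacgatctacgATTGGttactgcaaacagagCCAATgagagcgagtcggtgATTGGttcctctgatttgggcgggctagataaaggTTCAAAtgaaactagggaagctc
Kif11 (chr19:37376272-37376381, plus strand): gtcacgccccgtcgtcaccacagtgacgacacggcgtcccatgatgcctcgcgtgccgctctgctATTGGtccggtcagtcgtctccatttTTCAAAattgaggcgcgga
Ckap2l (chr2:129297213-129297322, minus strand): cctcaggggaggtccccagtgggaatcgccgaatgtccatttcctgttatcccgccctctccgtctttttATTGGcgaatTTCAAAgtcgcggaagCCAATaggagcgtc
Aurka (chr2:172370571-172370680, minus strand): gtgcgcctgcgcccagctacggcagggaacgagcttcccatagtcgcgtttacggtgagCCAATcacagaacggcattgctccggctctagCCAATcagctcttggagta
Ttk (chr9:83834579-83834688, plus strand): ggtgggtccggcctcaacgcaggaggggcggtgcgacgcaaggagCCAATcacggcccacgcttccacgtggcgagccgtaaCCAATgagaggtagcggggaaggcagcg
Mad2l1 (chr6:66535111-66535220, plus strand): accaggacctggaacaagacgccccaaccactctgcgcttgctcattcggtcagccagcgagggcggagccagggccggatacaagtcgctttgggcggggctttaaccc

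In Top2a and Kif11 the CHR match starts at -23 and -19, downstream of CCAAT matches, the nearest of which start at -58 and -45. Ckap2l has its CHR match at -30 between CCAAT matches at -40 and -14. Ccnb2 has CCAAT matches at -87, -54 and -21, each 33 bases from the next, and Aurka has them at -51 and -19, and both have their nearest CHR match after the start site, at 5 and 18. Ttk has the same arrangement, with CCAAT at -65 and -28 and CHR at 8, although it was almost unread in replicate 1. Mad2l1 has no match to either word in its whole window, which is placed on the RefSeq start site and stops before the start that GENCODE M21 gives. No match was found either in the windows of Kif18a, Knstrn, Ncaph, Nuf2, Nusap1 and Pttg1, and no match says only that these letters are not in this window.

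Counted over all windows, 40 of 49 mitotic promoters held a CHR match (81.6%), against 27.6% of 32817 reference promoters and 20.3% of the 7549 promoters whose gene had a mean TPM of 10 or more in this tissue. A CCAAT match was found in 36 (73.5%, against 37.4% and 39.3%), and at least 2 of them in 24 (49.0%, against 11.7% and 15.4%). Both words occurred together in 34 (69.4%, against 10.7% and 8.42%). With the gene's own strand searched alone, that number was 16 (32.7%, against 4.73% and 3.67%). The median share of G and C was 59.0% in mitotic promoters, against 52.7% in all promoters and 60.7% in those of genes at that level. A match is a description of letters, not a shown binding site, and the windows of Bub3, Ect2 and Prc1 overlap.

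In the mitotic promoters both words lay close to the start site. A CHR match started within 50 bases after the start site in 42.9% of them (3.37% of all promoters) and within 50 bases before it in 32.7% (5.22%). Farther upstream the share was 6.12% (5.38% of all promoters) between -100 and -51, 14.3% (6.08%) over the next 50 bases, and 16.3% (13.1%) more than 150 bases upstream. CCAAT matches lay mostly before the start site, in 46.9% of mitotic promoters between -50 and -1 (9.02% of all) and in 40.8% between -100 and -51 (12.5% of all). Neighbouring CCAAT matches were 30 to 35 bases apart in 9 of 46 pairs (19.6%), against 10.3% of 5405 pairs in all promoters.

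**Figure D5:**
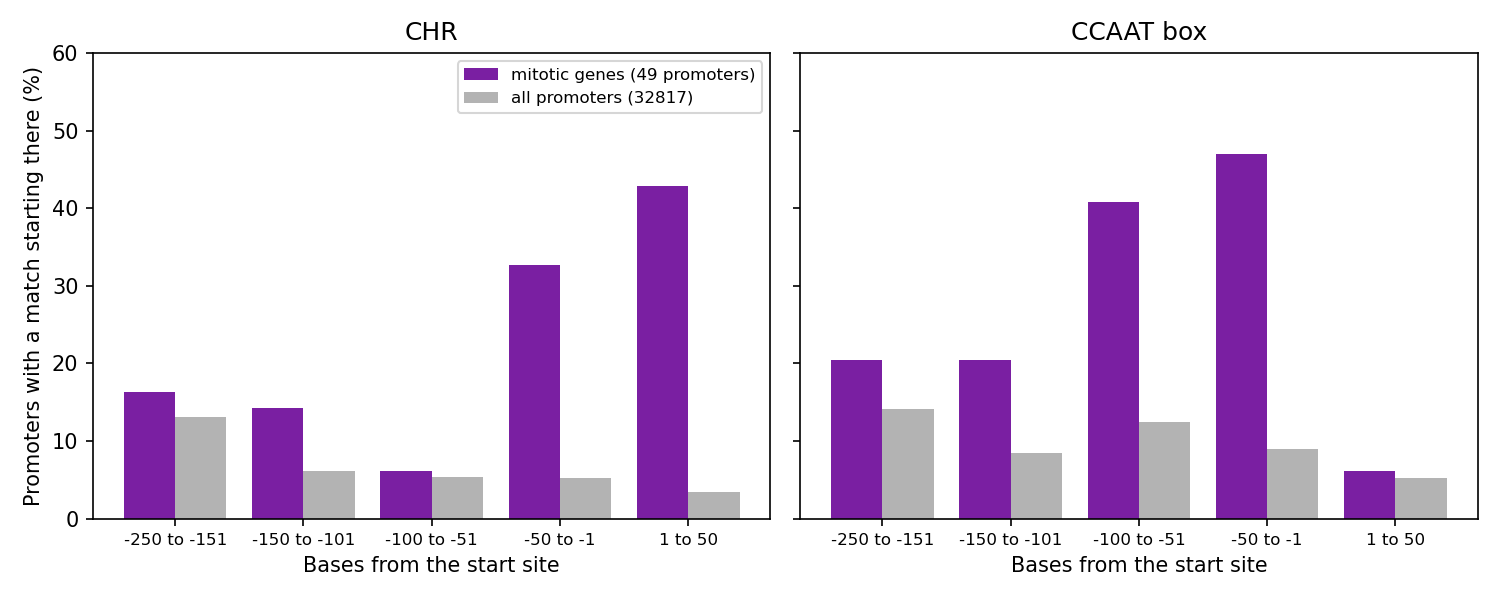
Percent of promoters with a CHR match (left) or a CCAAT match (right) that starts in each stretch before or after the start site, for the 49 mitotic promoters (purple) and all 32817 reference promoters (grey). CHR matches of the mitotic genes gather within 50 bases of the start site, and CCAAT matches within the 100 bases before it.

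The rest of the mitotic machinery was compared through a list of 85 other mitotic genes, chosen with earlier results of these data known. Of these, 64 were detected in both libraries, 18 in 1 and 3 in neither. The highest by mean were Cks1b, the relative of Cks2, at 633 and 490 TPM, and the anaphase-promoting complex subunits Anapc5 at 288 and 306 TPM and Anapc11 at 292 and 300 TPM. Those under a TPM of 1 in both were Wee1, the kinase that restrains Cdk1, with 24 and 18 counts, Cenpi, a centromere protein, with 0 and 17 counts, and Aurkc, the Aurora kinase of germ cells, with 0 counts in each. Among the 72 whose mean TPM was 10 or more, a 2-fold difference was seen for 35 (48.6%, near the 51.3% of all genes), 18 in favour of replicate 1 and 17 in favour of replicate 2, with a median difference of 0.07. The lean of the 53 genes toward replicate 2 was thus not seen over these 72 genes, and the difference between the lists was not tested.

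Some of the regulators that act on the CHR are in that list, and they are named here after their values were seen. Mybl2, which joins MuvB in S phase, had 19.95 and 42.38 TPM, and Foxm1, which joins later, had 6.63 TPM from 638 counts in replicate 1 and 0.01 TPM from 1 count in replicate 2. Of the MuvB subunits, Lin52 had 34.4 and 55.9 TPM. Lin37 had 0.13 TPM from 1 count and 77.1 TPM from 1781 counts. Lin9 had 0 counts in replicate 1 and 2095 in replicate 2, and Lin54, the subunit that touches the CHR, had 0 and 351 counts. Foxm1 and Lin54 have a mean TPM under 10, and at a mean between 10 and 50, where Lin37 and Lin9 lie, 28.7% of all genes had under 1% of their scaled counts in 1 of the libraries. Nothing is therefore read from how these regulators are spread over the libraries.

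DNA replication genes, the S phase counterpart, had a summed level of 4609 and 4654 TPM over 34 genes, 31 of them detected in both libraries. The highest by mean were Rrm2, the ribonucleotide reductase subunit, at 462 and 691 TPM, Pcna, the sliding clamp, at 407 and 328 TPM, and Mcm6, of the replicative helicase, at 391 and 236 TPM. A 2-fold difference was seen for 13 of the 34 (38.2%), 7 in favour of replicate 1 and 6 in favour of replicate 2. The share of all genes was 51.3%, but those genes were not matched to the replication genes by level. The median difference was 0.23, with 21 of 34 higher in replicate 1.

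Cells other than neural ones were also in the tissue, and they too may divide. Embryonic red cell RNA was plentiful: 12 erythroid markers summed to 31193 and 37361 TPM, with Hbb-y, an embryonic beta globin, at 12348 and 16181 TPM. Of the 12, 6 were detected in both libraries, and the early erythroid genes Gata1, Epor and Tal1 were under a TPM of 1 in both. Mesenchyme markers summed to 472 and 362 TPM, with 6 of 10 detected in both and Lum the highest by mean at 169 and 62.7 TPM. Endothelial markers summed to 138 and 124 TPM, with 4 of 8 detected in both, Esam the highest at 44.8 and 47.3 TPM, and Cldn5 at 0 counts in each. What part of the mitotic transcripts came from these cells was not tested.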

How the data were processed

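Each library has deposited tables of genes and of transcripts. Per the file headers, they hold expected counts (estimated reads, which need not be whole), TPM, and FPKM, each for all rows including spike-ins, with posterior means. The deposited transcript tables give the percent of a gene's TPM held by each transcript. The deposited limits of posterior intervals have the unit score here. The text deposited with the tables names assembly mm10 and annotation M4. How reads were aligned, quantified and assigned by strand is not given in the sources used here. Spike-ins and rows with a bare number as ID held 8.44% and 6.56% of TPM and were left out of gene totals.

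Symbols and coordinates (1-based) came by gene ID from GENCODE M21, of the same assembly, which matched 42462 of 43346 IDs (98.0%). Members and lists were chosen with earlier results of these data known. The rule for named genes takes all 53 members, the 3 highest and the undetected genes of the other mitotic and replication lists, and the highest marker of each cell type. Other genes are named as chosen after their values were seen. Detection is a TPM of at least 1. Differences are log2(TPM + 1), replicate 1 minus replicate 2, for genes whose mean TPM was 10 or more, and a pseudocount of 1 understates the change of low genes. Marker and pathway genes under that level stay out of the difference counts. CPM is per 1000000 gene counts. The 95% intervals of CPM ratios are exact and conditional on the pair of counts, and they and the floor of 3 counts cover counting error only, since the reads lack molecular identifiers. The labels give the replicates as pools of separate embryos but 1 shared donor label, so the spread between them may be technical in part. Scaling alternatives used edgeR 4.0.16 (TMM) and DESeq2 1.42.0 (size factors) in R 4.3.3 on rounded expected counts of the 12218 genes with 10 or more counts. The other steps used Python 3.11.15, pandas 2.3.3, numpy 2.4.6 and scipy 1.17.1. The difference and motif steps were tested on simulated data.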

Additional observations from a re-analysis of the deposited data

Results flagged for a closer look

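Reads were also given to a processed pseudogene of cyclin B1, Ccnb1-ps, which is in no comparison above. It had 85.24 expected counts in replicate 1 and 83.80 in replicate 2, or 3.21 and 3.18 TPM, above the 3 counts that a count of 0 allows. It was singled out because it is a signal outside the 53 genes. Ccnb1 itself had 24784 and 21132 counts, and reads of near-identical copies may be split between them. Copies of other members had 0 counts in each library (Ccnb2-ps and Kif4-ps) or 0 and 2 counts (Kif22-ps).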

How the results depend on the processing

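The member counts, the summed level and the median difference given here stayed within 1.5 times their value under the alternatives run, and the median kept its sign. Detected members numbered 50 to 53, and other mitotic genes 57 to 79. With 1 library left out, these were 52 and 53 members, 67 and 79 other genes, and a summed TPM of 7515 or 8666. The summed TPM was 8741 without spike-ins and numbered rows. Across pseudocounts, filters, posterior means and scalings (CPM, TMM, DESeq2 size factors), the median difference was -0.40 to -0.34, and 18 or 19 members differed 2-fold, 4 or 5 higher in replicate 1 and 13 to 15 in replicate 2. Counts by direction and the comparison with promoters of genes at the same level were added after seeing the data. The leading transcript was the same for 28 of 33, 29 of 34 (gene TPM of at least 1), 26 of 30 (at least 20) and 21 of 24 (protein-coding transcripts alone). Promoters with a CHR match numbered 33 to 40 and with CCAAT 24 to 36, the lowest when only the gene's strand was searched. That search left both words together in 16 promoters in place of 34, and at least 2 CCAAT matches in 15 in place of 24. Of 133 values for the 19 members that differed 2-fold, 124 stayed past 2-fold, 9 did not (Bub1b in 5, Cdc20 in 3, Kif22 in 1) and 0 reversed. Among members within 2-fold, the difference of Cdk1, Ccnb2, Cenpf and Hmmr moved with the scale: in CPM it was 0.20, 0.03, 0.22 and 0.52, so Ccnb2 and Cenpf changed sign. Leaving out a library gives no value for differences or leading transcripts. No paired analysis was possible because there is 1 group.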
